A study of Mus musculus with 84 samples.

Results

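Expression of genes for making, sensing and removing histamine was measured in the amygdala's central nucleus (CeA), a small forebrain region whose neurons are mainly GABAergic and which is involved in fear, stress and alcohol drinking. The genes were the 5 rows named Hdc, Hrh1, Hrh2, Hrh3 and Hnmt out of 43629 genes in the table. All 5 were among the 16320 genes that passed the filter on low counts. The libraries came from 84 heterogeneous stock Collaborative Cross mice (HS-CC), an outbred population, 1 library per animal, with 43 females and 41 males. All animals had a free choice between water and 10% ethanol for 13 weeks, starting at a median age of 15 weeks, and no ethanol-free group is among these samples. Preference is the share of the drunk volume that came from the ethanol bottle, and intake is ethanol in g per kg body weight. The nucleus was laser-dissected on both sides from frozen sections, so the libraries hold all cell types in the cut piece and whatever lay at its edge. Up to 3 animals came from 1 family, and neither family nor sequencing lane is given per animal in the sources used here, so p-values measure the spread between these animals, some of which were related. The libraries held 24118965 to 36924667 counts in females and 24829435 to 42036566 in males. The 12 genes of the central amygdala neuron list summed to 1353 to 3790 CPM in females and 1248 to 4117 CPM in males and none was at 0 in any library (Sst, for one, had at least 6631 counts). The 10 genes of the cortical and basolateral excitatory neuron list summed to more, with a median of 5827 CPM over all libraries against 2036 CPM for the central amygdala list. The 5 histamine genes were chosen from an earlier analysis of these data in which Hdc was among the genes with the smallest p for preference, so its relation to drinking is described here without a test.

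Histamine in the brain is made from the amino acid histidine by histidine decarboxylase, the product of Hdc. The neurons that make it lie in the tuberomammillary nucleus of the posterior hypothalamus and send axons widely, also into the amygdala, so Hdc mRNA of these neurons is found in the hypothalamus rather than where the transmitter is released. Mast cells also make histamine. The receptors are coupled to G proteins: H1 (Hrh1) acts through Gq, H2 (Hrh2) through Gs and H3 (Hrh3) through Gi/o, and H3 also acts as an autoreceptor that limits histamine release. In brain, histamine is broken down mainly by the methyltransferase encoded by Hnmt, followed by monoamine oxidase B (Maob).

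On mouse build GRCm38, Hdc (ENSMUSG00000027360) spans chr2:126593667-126619299 on the minus strand. Hrh3 (ENSMUSG00000039059, chr2:180099465-180104488) and Hnmt (ENSMUSG00000026986, chr2:24002910-24049394) lie on the same strand of the same chromosome, far from Hdc and from each other. Hrh1 (ENSMUSG00000053004) spans chr6:114397936-114483296 and Hrh2 (ENSMUSG00000034987) spans chr13:54192129-54222432, both on the plus strand. Antisense genes overlap Hrh2 (Gm16578, at most 2 counts in a library) and Hrh3 (Gm17180, at most 6 counts). The strand setting of the counting is not given in the sources used here, so reads of those pairs cannot be told apart.

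The 250 bases before the start site of Hdc are shown beside those of Dynlrb2 and Iqca, because these are among the genes whose level followed Hdc most closely over the libraries. Dynlrb2 encodes a dynein light chain. Capitals mark GTTNCC on either strand, the core of the site bound by RFX transcription factors, which are known for their role in genes of cilia. RefSeq's start site for Hdc lies inside the span given above, because a longer transcript model in the table begins further upstream, and the window shown overlaps none of the table's Hdc exons. The sequences are RefSeq's on GRCm38.p6, written 5′ to 3′ on the gene's strand, and come from chr2:126618679-126618928 (minus) for Hdc, chr8:116504765-116505014 (plus) for Dynlrb2 and chr1:90153437-90153686 (minus) for Iqca.
Hdc: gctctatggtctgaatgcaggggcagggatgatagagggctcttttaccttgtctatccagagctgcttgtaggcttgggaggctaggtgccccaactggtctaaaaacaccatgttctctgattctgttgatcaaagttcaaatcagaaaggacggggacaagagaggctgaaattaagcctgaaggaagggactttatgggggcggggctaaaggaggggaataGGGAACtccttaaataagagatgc
Dynlrb2: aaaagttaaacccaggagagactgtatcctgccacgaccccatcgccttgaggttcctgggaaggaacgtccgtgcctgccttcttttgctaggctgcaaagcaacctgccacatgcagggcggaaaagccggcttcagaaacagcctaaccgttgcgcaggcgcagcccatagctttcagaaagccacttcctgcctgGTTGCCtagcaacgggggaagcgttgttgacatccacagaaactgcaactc
Iqca: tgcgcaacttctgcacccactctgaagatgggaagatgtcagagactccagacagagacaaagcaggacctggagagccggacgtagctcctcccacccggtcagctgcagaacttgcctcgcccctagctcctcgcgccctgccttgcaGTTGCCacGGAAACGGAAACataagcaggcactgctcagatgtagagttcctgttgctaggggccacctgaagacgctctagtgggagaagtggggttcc
The marked letters occurred in 1 place in the Hdc window (position -24 from the start site), in 1 place in Dynlrb2 (-51) and in 3 places in Iqca. Of the 10 genes most like Hdc, 9 had a promoter entry and 7 of these held the letters. The windows of 1700088E04Rik, the gene most like Hdc, and of Ak8 did not hold them. The motif is common, since 39.4% of 32851 promoters of the same length held it on one strand or the other, so these matches are a description of the letters and not of a binding site. The GC box letters, GGGCGG, stood at -48 in Hdc and at -132 in Dynlrb2 and occurred in 32.7% of promoters. The letters TATAAA were in none of the 3 windows, although 12.4% of promoters hold them.

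Hrh3 was the most abundant of the 5 genes per length of exon and Hdc the least. Per length, in CPM (counts scaled to the library total) per kb of exon, the median over the 84 libraries was 51.9 for Hrh3, 13.3 for Hnmt, 5.55 for Hrh1, 0.759 for Hrh2 and 0.438 for Hdc. Hrh3 was above Hnmt, Hnmt above Hrh1 and Hrh1 above Hrh2 in 84 of 84 libraries each. Hrh2 was above Hdc in 59 of 84, so the order of the lowest pair was not fixed from library to library. In CPM without division by length, the median of Hdc was above that of Hrh2 in both sexes.

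**Figure D1:**
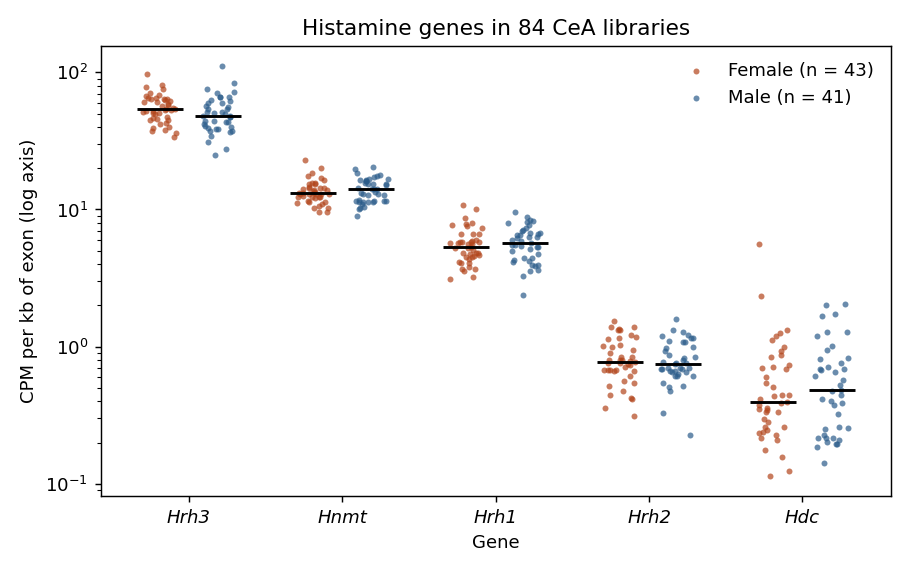
Level of each histamine gene in every library, in CPM per kb of exon on a log axis, with females left of males and a bar at the median. Hdc spread much more widely than the 4 other genes, with 1 female library at 5.59 CPM per kb far above the rest.

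Hdc, the enzyme that makes histamine, had 0.732 CPM in the lowest, 2.51 in the median and 35.7 in the highest female library, against 0.904, 3.09 and 13.1 in males. In reads these were 21 to 1250 in females and 29 to 416 in males. The sexes overlapped almost completely, and 1 female library stood well above all others. The standard deviation of its log2 CPM over all libraries was 1.07, larger than that of 94.7% of all genes tested and of 91.3% of the 1290 genes within 0.5 log2 units of its mean level. Hdc was thus low on average and very uneven between animals.

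The log2 standard deviations of the receptors were smaller than that of Hdc. Hrh1 ranged over 13.9, 23.5 and 48.2 CPM (lowest, median, highest) in females and 10.6, 25.4 and 42.7 in males, with a log2 standard deviation of 0.43, larger than that of 84.4% of genes of like level. Hrh2 was low, at 0.867, 2.16 and 4.27 CPM in females and 0.637, 2.08 and 4.45 in males, and its log2 standard deviation of 0.53 was close to the median of 0.55 over genes of like level. Hrh3 stood at 106.7, 169.7 and 306.3 CPM in females and 79.1, 152.2 and 347.3 in males, with a log2 standard deviation of 0.39, larger than that of 87.0% of genes of like level. Each receptor's ranges in females and males covered nearly the same levels. Hrh4, the receptor of immune cells, had at most 2 counts in a library and was at 0 in 71 of 84.

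Hnmt, the inactivating enzyme, had 16.9, 23.4 and 40.4 CPM in females and 15.9, 24.9 and 36.3 CPM in males. It had the smallest log2 standard deviation of the 5 genes, 0.28, which was still larger than that of 60.5% of genes of like level. The other histamine-degrading enzyme, diamine oxidase (Aoc1), was at 0 in 58 of 84 libraries and reached at most 7 counts.

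None of the 5 genes passed the test for a difference between females and males (edgeR quasi-likelihood test, Benjamini-Hochberg over 16320 genes, threshold 0.05), a contrast in which 0.0919% of all genes were called. The female minus male log2 difference was 0.03 ± 0.25 (SE) for Hdc with an adjusted p of 0.997. It was -0.05 ± 0.09 for Hrh1 (adjusted p = 0.989), 0.04 ± 0.12 for Hrh2 (0.991), 0.11 ± 0.08 for Hrh3 (0.986) and -0.04 ± 0.06 for Hnmt (0.986). These errors leave room for a difference of about -0.47 to 0.53 in Hdc (2 SE either side), but only of about -0.16 to 0.08 in Hnmt. Of the other genes that handle histamine, 9 of 13 were measured above the filter and 0 of 9 differed between the sexes. Among them the vesicular monoamine transporter Slc18a2, which loads histamine into vesicles and also serves the other monoamines, had a female minus male difference of 1.36 ± 0.38 with an adjusted p of 0.381.

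The level of Hdc followed genes of the cells that line the ventricles. Hdc rose and fell over the 84 libraries with the score of a list of 14 motile cilium genes of ependymal cells (Pearson r = 0.839, Spearman rho = 0.778), and with that of 14 choroid plexus genes (r = 0.789, rho = 0.697). A score is the mean z-score of a list's log2 CPM in a library. Both relations had a permutation p of 1e-05, the smallest that 100000 permutations can give, and an adjusted p of 0.0001 over 70 relations (5 genes by 14 lists). The genes and the lists were chosen with earlier results of these data known. The p-values of these and the other list relations are therefore not independent evidence. Without the 2 libraries farthest from the median score, r was 0.820 for the cilium list and 0.764 for the choroid list. All 14 cilium genes had a rho over 0.5 with Hdc, between 0.661 for Dnah11 and 0.818 for Dynlrb2, and 13 of the 14 choroid genes did, whereas 3.82% of all genes tested did.

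The titles carry sample-sheet numbers that fall into 4 ascending runs, and what the runs stand for is not given. Within runs 1 to 4 the cilium relation had r of 0.709, 0.941, 0.841 and 0.838, and the choroid relation 0.770, 0.914, 0.639 and 0.837. The relation was thus present in each run. Leaving out the library with the highest Hdc gave r = 0.832 and 0.784.

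**Figure D2:**
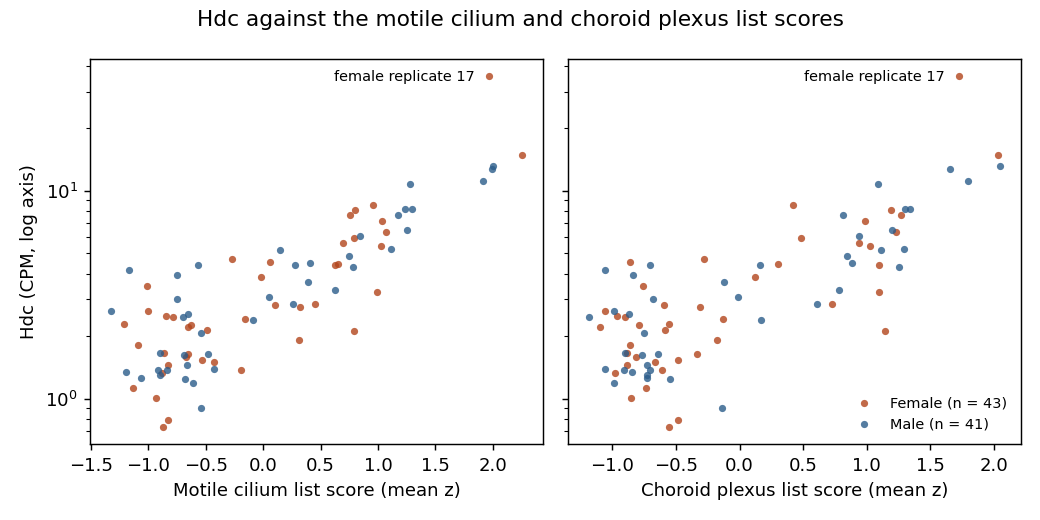
Hdc in CPM on a log axis against the motile cilium score (left) and the choroid plexus score (right), both mean z-scores, 1 point per library. Hdc climbs along both scores (r = 0.839 and 0.789), and female replicate 17 lies above the trend in both panels.

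The cilium and choroid scores had r = 0.938 with each other, and together they accounted for 70.5% of the variance of log2 Hdc. The partial r of Hdc with the cilium score given the choroid score was 0.465, and with the choroid score given the cilium score it was 0.0094. Without the 5 libraries with the highest choroid score, which were also the 5 with the highest Hdc, these were 0.421 and 0.0324. Over these libraries Hdc followed the part of the cilium score that the choroid score did not share, while the converse value was near 0. In bulk tissue, fewer cells of a type and less RNA per cell cannot be told apart.

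The summed levels of both lists spanned a wide range. The 14 choroid genes summed to 14.8 CPM in the lowest, 88.9 in the median and 20798 in the highest female library, against 12.8, 239.2 and 24576 in males. Ttr, the main secreted protein of the choroid plexus, alone ranged from 3 to 768331 counts. The 14 cilium genes summed to 19.7, 41.7 and 429.2 CPM in females, against 16.1, 41.7 and 370.9 in males, so the sexes overlapped in both. Of the choroid genes 6 were at 0 in at least 1 library, and Hdc was at 0 in none.

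The 10 genes with the highest rho with Hdc were 1700088E04Rik (0.828), Dynlrb2 (0.818), Ccdc162 (0.814), Ak8 (0.811), Ccdc33 (0.806), Iqca (0.803), Aqp1 (0.803), Catip (0.802), Dnajb13 (0.801) and Cfap206 (0.801). Dnajb13 and Cfap206 encode parts of the axoneme of motile cilia, and Aqp1 encodes a water channel that is abundant in choroid plexus. The order of these genes is not firm, since their rho values lay within 0.03 of each other. The 3 genes with the lowest rho were Diras1 (-0.679), Sv2a (-0.677) and Nat8l (-0.655), of which Sv2a encodes a protein of synaptic vesicles and Nat8l the enzyme that makes N-acetylaspartate in neurons. The likeness did not extend to the chromosomal neighbourhood of Hdc: 32 tested genes within 1 Mb had a median rho of 0.0171, from -0.595 for Tmem127 to 0.598 for Itpripl1.

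Lists of other possible sources of Hdc gave smaller values. The hypothalamus score had r = -0.119 with Hdc (rho = -0.139, permutation p adjusted over 70 relations 0.42) and the tuberomammillary neuron score r = 0.152 (rho = 0.0718, adjusted p = 0.31). The tuberomammillary list shares Maob and Slc18a2 with the histamine handling list, and Maob was its only gene with a rho over 0.5. Of the 11 mast cell genes, the 9 defining ones (Cma1, Mcpt4, Tpsb2, Tpsab1, Cpa3, Ms4a2, Fcer1a, Mrgprb1, Mrgprb2) summed to 0 to 39 counts per library with a median of 2. The remaining genes of that list, Kit and Gata2, which are also expressed by neurons, had medians of 1419 and 95.5 counts and a rho with Hdc of 0.0764 and -0.491. The sum of the 9 defining genes had a rho of -0.0924 with Hdc, and the library with the highest such sum, male replicate 12, had 106 Hdc counts. The 8 basophil and neutrophil genes had a median sum of 9 counts and a rho of -0.195.

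Hdc was lower where 3 other lists were higher. The r was -0.381 with microglia (rho = -0.324, permutation p adjusted over 70 relations 0.002), -0.373 with endothelial and mural genes (rho = -0.336, adjusted p = 0.0024) and -0.278 with striatal medium spiny neurons (rho = -0.269, adjusted p = 0.037). Within runs 1 to 4 these were 0.0079, -0.779, -0.275 and -0.324 for microglia, 0.139, -0.751, -0.580 and -0.152 for endothelial and mural genes, and -0.0306, -0.395, -0.474 and -0.323 for striatal neurons, so all 3 were near 0 or positive in run 1. Without the 2 farthest libraries r was -0.396, -0.330 and -0.256.

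**Figure D3:**
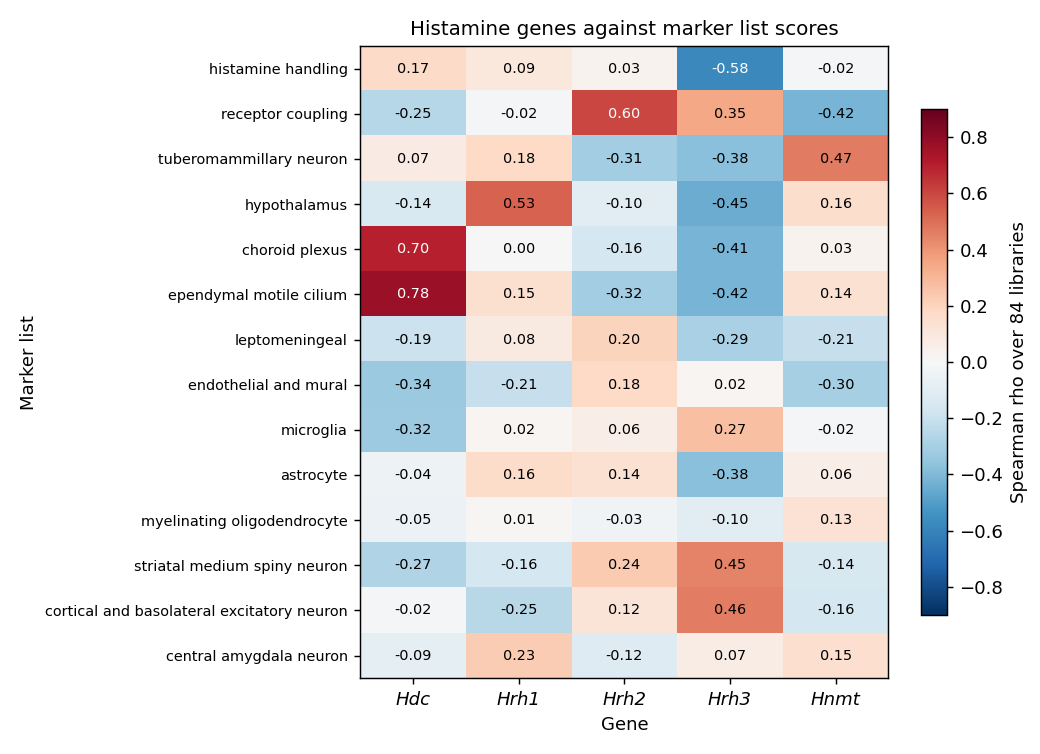
Spearman rho over 84 libraries between each histamine gene (columns) and the score of each of 14 marker lists (rows), red for positive and blue for negative. The highest values are those of Hdc with the motile cilium (0.778) and choroid plexus (0.697) lists.

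The library with the highest Hdc, female replicate 17 of run 2, differed from the others with high Hdc. It had 1250 Hdc counts (35.7 CPM), followed by female replicate 38 with 14.9 CPM and male replicates 33, 38, 17 and 34 with 13.1, 12.8, 11.1 and 10.8 CPM. Its choroid and cilium scores both ranked 4 of 84, and in a fit of Hdc on both scores made without it, its Hdc lay 1.71 log2 units above the fit, or 3.02 residual standard deviations. Its tuberomammillary score ranked 1 of 84, whereas those of the next 5 libraries ranked 69, 62, 20, 63 and 23.

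The genes of that list are known from tuberomammillary or nearby neurons but are not private to them. Prph (243 counts) and Wif1 (115) were higher there than in any other library, and Maob (1691 counts) and Slc18a2 (383) ranked 2 by CPM. For the other 5 genes of the list the library ranked 10 (Sncg), 13 (Hcrtr2), 21 (Gal), 32 (Itm2a) and 51 (Ada). Hmx2 (12 counts) and Hmx3 (23 counts), homeobox genes of the hypothalamus that were at 0 in 65 and 57 libraries, ranked 3. The genes that stood furthest above the next library were Hdc itself, Foxb1 (11.4 CPM against 5.08 CPM in the next library and a median of 0.402), Srl (16.7 against 9.29) and Wif1 (3.29 against 1.82). Next in order came Catsperg2 (2.86 against 1.63), Cfap299 (3.74 against 2.25), Rgs22 (12.1 against 7.49) and Lhfpl1 (2.09 against 1.28). Foxb1 encodes a transcription factor of the mammillary region in mouse brain. Its hypothalamus score ranked 27, and the 15 genes of that list were mixed there. By CPM it ranked 2 for Agrp (67 counts), 4 for Nkx2-1 (387), 5 for Rax (16), 9 for Pomc (130) and 10 for Nr5a1 (9) and Pmch (418), but 14 for Hcrt (22) and between 32 and 55 for Sim1, Otp, Trh, Oxt, Avp and Fezf1. The part of these genes in the Hdc value of that library was not tested.

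Hrh1 varied with some hypothalamic genes. Its r with the hypothalamus score was 0.529 (rho = 0.529, permutation p = 1e-05, the smallest that can be given, adjusted p = 0.0001 over 70 relations), and 0.479 without the 2 farthest libraries. Within runs 1 to 4 it was 0.0403, 0.694, 0.387 and 0.754, so it was near 0 in run 1. Fezf1 (rho = 0.689) and Otp (0.644), developmental transcription factors that mark hypothalamus and neighbouring medial amygdala, were highest among the 9 tested genes of the list. They were the only 2 with a rho over 0.5. The median of the 9 was 0.370, and the lowest values were those of Nkx2-1 (0.132) and Pomc (0.186). No other list passed the threshold for Hrh1. The 5 genes most like Hrh1 were Rrad (0.868), Zbtb7c (0.827), Ngb (0.789), Tmem215 (0.771) and Esyt3 (0.767); Ngb encodes the neuronal globin neuroglobin.

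Hrh2 varied with the list of G proteins and effectors of the histamine receptors (r = 0.586, rho = 0.599, adjusted permutation p = 0.0001), with 0.535 without the 2 farthest libraries and 0.521, 0.798, 0.447 and 0.587 in runs 1 to 4. The highest single values among its 10 genes were those of Gnao1 (rho = 0.482) and Plcb1 (0.470), while Gnas, the Gs alpha subunit through which H2 acts, had a rho of -0.357. The 5 genes most like Hrh2 were Zbtb4 (0.855), Kcna2 (0.847), Hs6st3 (0.844), Epb41l1 (0.834) and Cntnap1 (0.825). Kcna2 encodes a potassium channel of axons and Cntnap1 the axonal protein Caspr. Hrh2 had a rho over 0.5 with 8.05% of all genes, against 7.27% for Hnmt, 3.82% for Hdc, 2.26% for Hrh3 and 1.75% for Hrh1. It also fell slightly with the cilium score (r = -0.265, rho = -0.315, adjusted p = 0.048), although in run 4 that r was 0.0201.

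Hrh3 had the most relations, with 10 of 14 lists past the threshold. It was higher where striatal medium spiny neuron genes were higher (r = 0.517, rho = 0.449, adjusted permutation p = 0.0001), with 0.430 without the 2 farthest libraries and 0.364, 0.514, 0.604 and 0.727 in runs 1 to 4. It was also higher with cortical and basolateral excitatory neuron genes (r = 0.397, rho = 0.461, adjusted permutation p = 0.0014). It was lower where hypothalamic genes were higher (r = -0.459, rho = -0.448, adjusted permutation p = 0.0001), and likewise with choroid plexus genes (r = -0.399, rho = -0.415, adjusted p = 0.0011), motile cilium genes (r = -0.385, rho = -0.416, adjusted p = 0.0018) and astrocyte genes (r = -0.341, rho = -0.376, adjusted p = 0.0064). Without the 2 farthest libraries these 5 values of r were 0.371, -0.402, -0.422, -0.413 and -0.417. Within runs 1 to 4 the hypothalamic r was -0.0199, -0.475, -0.195 and -0.644, and the choroid r was -0.539, -0.432, -0.510 and -0.302. The tuberomammillary (r = -0.409, adjusted permutation p = 0.001), receptor coupling (r = 0.312, adjusted p = 0.016) and leptomeningeal lists (r = -0.287, adjusted p = 0.03) also passed for Hrh3. Some lists share genes, such as Adcy5 and Gnal in the striatal and coupling lists, so the relations are not separate from each other. The 12 striatal genes summed to 999 to 9052 CPM in females and 841 to 10475 CPM in males. The 5 genes most like Hrh3 were Prkcb (0.762), Plcl2 (0.736), Phactr1 (0.716), Rbp4 (0.709) and Prkcz (0.706), of which Prkcb and Prkcz encode protein kinases C.

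The score of the other histamine handling genes was lower where Hrh3 was higher (r = -0.550, rho = -0.580, adjusted permutation p = 0.0001), with -0.500, -0.561, -0.483 and -0.561 in runs 1 to 4. Within that list Slc29a4, a transporter that takes up monoamines including histamine, had a rho of -0.504 with Hrh3 and 0.537 with Hdc. Slc29a4 is itself abundant in choroid plexus. Maob had 0.577 with Hdc, and Slc22a3, another low-affinity monoamine transporter, had -0.540. The Hdc relation with the whole handling score was small (r = 0.273, rho = 0.170, adjusted p = 0.039 for r and 0.25 for rho) and was 0.213, 0.256, 0.156 and 0.555 in runs 1 to 4.

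Hnmt varied least between animals of the 5 genes, and it had a rho over 0.5 with 7.27% of all genes. The 5 genes most like it were Psmc6 (0.859), Pdcd10 (0.859), C1d (0.843), Cops3 (0.843) and Cacybp (0.841), of which Psmc6 encodes a proteasome subunit and Cops3 a subunit of the COP9 signalosome. It rose with the tuberomammillary list (r = 0.408, rho = 0.465, adjusted permutation p = 0.0014; 0.311, 0.571, 0.746 and 0.269 in runs 1 to 4) and fell with the receptor coupling list (r = -0.392, rho = -0.421, adjusted p = 0.0014). Within the handling list it had its highest rho with Maoa, monoamine oxidase A, at 0.510.

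Among the 10 pairs of the 5 genes, 5 passed the threshold. Hrh2 and Hnmt moved in opposite directions (r = -0.487, rho = -0.463, adjusted permutation p = 0.0001 over the 10 pairs), with -0.392, -0.324, -0.577 and -0.507 in runs 1 to 4 and -0.483 without the 2 farthest libraries. Hdc was lower where Hrh2 (r = -0.333, rho = -0.388, adjusted p = 0.0094) and Hrh3 (r = -0.307, rho = -0.320, adjusted p = 0.014) were higher; in runs 1 to 4 these were -0.266, -0.339, -0.673 and -0.103 for Hrh2 and -0.507, -0.418, -0.275 and -0.292 for Hrh3. Hrh1 with Hrh3 (r = -0.270, rho = -0.295, adjusted p = 0.026) and Hrh2 with Hrh3 (r = 0.281, rho = 0.255, adjusted p = 0.023) had the opposite sign in run 1, at 0.222 and -0.211. Hdc and Hnmt, the enzymes that make and remove histamine, had r = 0.183 (rho = 0.233, adjusted p = 0.12).

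The runs differed for many genes, and 21.7% of all genes tested were called in the test across the 4 runs. Of the 5 histamine genes 1, Hnmt, was called (edgeR adjusted p = 0.0221), a share close to that background. Hnmt averaged 23.6 ± 3.19 CPM in run 1 (SD, n = 18), 23.9 ± 3.99 in run 2 (n = 18), 21.8 ± 3.89 in run 3 (n = 17) and 26.8 ± 5.72 in run 4 (n = 31), so run 4 was highest while all 4 ranges overlapped. The adjusted p was 0.0711 for Hrh1, 0.0894 for Hrh2, 0.219 for Hdc and 0.392 for Hrh3. Hrh2 averaged 2.44 ± 0.65, 2.70 ± 0.92, 2.30 ± 0.88 and 1.98 ± 0.74 CPM in runs 1 to 4. Of the 9 tested handling genes 3 were called across runs, namely Slc18a2, Slc22a2 and Slc15a4.

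**Figure D4:**
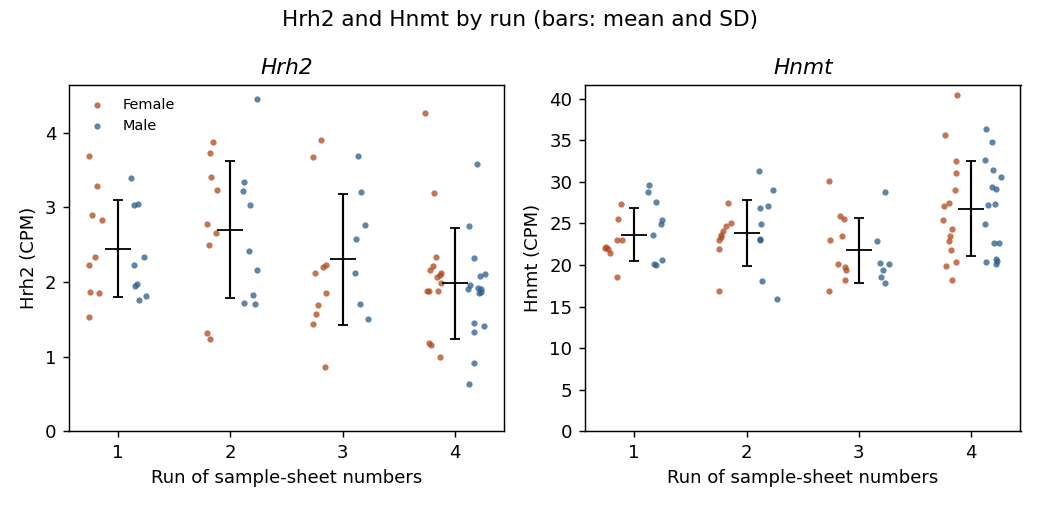
Hrh2 (left) and Hnmt (right) in CPM in each of the 4 runs, females left of males, with the mean and SD of each run. Hnmt is highest in run 4 (26.8 ± 5.72 CPM), where Hrh2 is lowest (1.98 ± 0.74 CPM).

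The relation of Hdc to drinking is the one that led to its choice and is given as a description. Its log2 slope with mean preference was 1.26 ± 0.35 (SE) per 0.5 of preference over all 84 animals with sex in the fit, 1.69 ± 0.45 in the 43 females and 0.62 ± 0.51 in the 41 males. Per 10 g/kg of mean intake the slope was 1.41 ± 0.31. With preference in week 1 it was 0.78 ± 0.33, and with that in week 13 it was 1.06 ± 0.28. The male minus female difference of the slopes was -1.07 ± 0.72, given as a description like the slopes themselves.

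Over the 13 weekly preferences, r with Hdc ran from 0.146 to 0.398 in females and from 0.0507 to 0.290 in males. The weeks are repeated measures of the same animals, so they are not independent of each other. Leaving out the 2 animals with the most extreme preference in week 1 gave -0.0495 in females and -0.0115 in males for that week. In the other weeks the value stayed above 0 in both sexes when 2 animals were left out in this way. For the 13-week mean r with Hdc was 0.360 in females (rho = 0.249) and 0.253 in males (rho = 0.229), and leaving out the 2 animals with the most extreme preference gave 0.269 in females and 0.176 in males. Within runs 1 to 4 it was 0.581, 0.619, 0.0641 and -0.0248 in females and -0.0233, 0.687, -0.0231 and 0.168 in males. The value was above 0.5 in runs 1 and 2 in females and in run 2 in males, and near 0 or below 0.2 in the other runs. These values rest on few animals: 9, 9, 10 and 15 females and 9, 9, 7 and 16 males in runs 1 to 4. Run 2 of the females includes replicate 17, the library with the highest Hdc.

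The 6 animals with a mean preference of at least 0.5 had Hdc of 4.41, 2.42, 35.7, 14.9 and 5.60 CPM in female replicates 37, 43, 17, 38 and 12, and of 4.52 CPM in male replicate 30. The 38 females under 0.5 had 0.732 in the lowest, 2.38 in the median and 8.52 CPM in the highest library, and the 40 males under 0.5 had 0.904, 3.05 and 13.1 CPM. This limit on the 13-week mean leaves fewer animals than the study's own count of high-preference mice, whose measure is not given in the sources used here. Hdc of these 6 animals overlapped with that of the others of their sex except in female replicates 17 and 38. Those libraries ranked 4 and 2 on the choroid score. Male replicate 17, of rank 3 on the choroid score, had 11.1 CPM of Hdc at a preference of 0.468, but male replicate 33, with the highest choroid score of all, had 13.1 CPM at a preference of 0.0262.

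**Figure D5:**
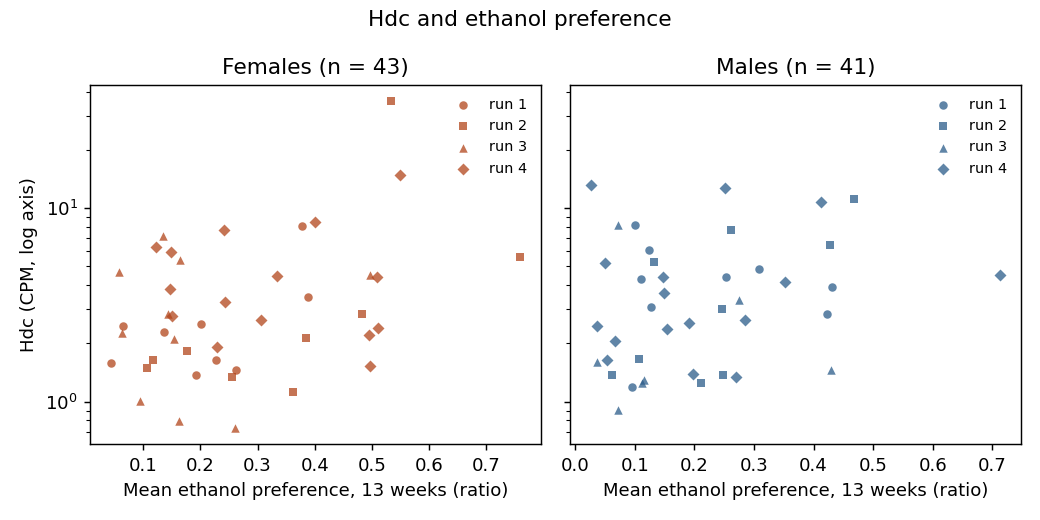
Hdc in CPM on a log axis against the mean ethanol preference over 13 weeks, females left and males right, with a marker for each run. The highest female libraries, at 35.7 and 14.9 CPM, belong to animals with a mean preference above 0.5, while 1 male library at 13.1 CPM belongs to an animal at 0.0262.

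The slope of Hdc was smaller over all animals and in females in fits with a score of ventricle-lining genes or without the libraries high in them. The 5 libraries with the highest choroid score were also the 5 with the highest Hdc in CPM. Leaving them out thus also removes the highest values of Hdc itself, and is not a separate check from leaving out high Hdc. For mean preference in all animals, 1.26 became 0.79 without the library with the highest Hdc, 0.59 without the 5 libraries with the highest choroid score, 0.68 with the choroid score as a covariate and 0.53 with the cilium score as a covariate. In females, 1.69 became 0.92, 0.49, 0.71 and 0.40 under the same changes. In males, 0.62 stayed at 0.62 without the highest Hdc library, which is a female's, and became 0.72, 0.56 and 0.58 under the others. For intake, 1.41 became 0.92, 0.64, 0.65 and 0.56. The week 1 slope of 0.78 became 0.11 without the highest Hdc library and 0.018 without the 5 choroid libraries.

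The lists of ventricle-lining genes moved with the same measures. With mean preference over all animals the median log2 slope per 0.5 was 1.03 for the 14 cilium genes and 1.38 for the 14 choroid genes, against -0.0016 for all genes tested. In females these medians were 1.48 and 2.48, and in males 0.47 and 0.067. With intake they were 1.26 and 1.87 per 10 g/kg, against -0.00023 for all genes. No gene of either list was called in any of these fits. Of all genes tested, 0% were called for mean preference (all animals, females or males) and 0.049% for intake. At an unadjusted p under 0.05 there were 12 of 14 cilium and 3 of 14 choroid genes for mean preference over all animals (3.94% of all genes), 11 and 13 in females (6.94%), 0 and 0 in males (1.69%), and 14 and 13 for intake (7.87%). The part of ventricle-lining tissue in the Hdc slope was not tested beyond these values.

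The other 4 genes had slopes close to 0. In the fit on mean preference over all animals, in which edgeR called 0 genes (0% of all genes tested; 643 at an unadjusted p under 0.05), the log2 slope per 0.5 was 0.04 ± 0.14 for Hrh1, -0.09 ± 0.19 for Hrh2, -0.11 ± 0.14 for Hrh3 and -0.06 ± 0.10 for Hnmt, each with an adjusted p of 1. DESeq2 and limma-voom also called 0 genes in this fit. With 2 SE either side, slopes beyond -0.25 and 0.33 in Hrh1 or beyond -0.25 and 0.13 in Hnmt lay outside the interval, whereas that of Hrh2 reached from -0.46 to 0.28.

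For intake the slopes per 10 g/kg were -0.05 ± 0.15 for Hrh1 (adjusted p = 0.98), -0.09 ± 0.18 for Hrh2 (0.975), -0.04 ± 0.13 for Hrh3 (0.984) and -0.11 ± 0.09 for Hnmt (0.9), with 0.049% of all genes called. In females alone the 4 slopes with mean preference ran from -0.21 to 0.09, and in males alone from -0.11 to 0.08. With week 1 preference, where 0.0306% of all genes were called, they ran from -0.12 to 0.02, and with week 13 preference from -0.14 to 0.06. None of the 4 genes was called in any of these fits. In those on females alone, males alone and week 13 preference, 0% of all genes were called. The largest of the slopes relative to its error was that of Hnmt with week 13 preference, -0.14 ± 0.08 (adjusted p = 0.862). Of the 9 tested handling genes 0 were called in each fit on a drinking measure, where at most 0.049% of all genes were called. These counts therefore say little about the handling genes.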

How the data were processed

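RNA was sequenced from laser-dissected CeA of 84 HS-CC mice, with stranded poly(A) libraries per the labels' protocols. The deposited values were whole-number counts of reads per gene without normalization, for which the submitters' processing notes name STAR and featureCounts 1.6.0 and build GRCm38 (mm10). Neither the strand setting nor the annotation release could be found in the sources used here. The table also held 8 columns that belong to no sample (3 of undetermined reads and 5 empty), which were not used. Library totals lay between 24118965 and 42036566 counts with a median of 31573089. The labels name no molecular identifiers, so precision from counts covers counting error only.

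Genes were filtered with filterByExpr by sex (minimum count 10, minimum total 15), which left 16320, and scaled by TMM. Each contrast was fitted to all genes with edgeR 4.0.16 (robust quasi-likelihood) in R 4.3.3, with Benjamini-Hochberg adjustment and a threshold of 0.05, after the same fit had been tested on simulated data. Slopes are per 0.5 of preference or 10 g/kg of intake. With ranks of a drinking measure they are per 0.5 of the range of ranks. Log2 CPM used a prior count of 2. Of 16 marker lists, 14 had enough tested genes for a score; a score leaves out the 5 histamine genes. Correlations carry 2-sided permutation p-values from 100000 permutations (numpy 2.4.6, scipy 1.17.1), adjusted over 70 relations with lists and over 10 pairs of members. The members and the lists were chosen with earlier results of these data known. Named genes were the members, the 10 genes most and 3 least like Hdc and the 5 most like each other member by Spearman rho (mean log2 CPM of at least 0), the handling genes, leading genes of the lists and genes within 1 Mb of Hdc; Foxb1, Srl and other genes of the library with the highest Hdc were chosen after their values were seen. Alternatives were DESeq2 1.42.0, limma-voom (limma 3.58.1), no filter, run, choroid and cilium score covariates, ranks of the drinking measures, and leaving out the highest libraries. The cilium covariate, and the correlations without the library with the highest Hdc, were added after seeing the data.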

Additional observations from a re-analysis of the deposited data

How the results depend on the processing

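No paired analysis was possible, since each animal gave 1 library and family is not given per animal. The labels give no replicate numbers, and those used here only name animals in sample order. Without a filter on low counts edgeR called 74 genes for sex, 53 for mean preference over all animals, 23 in females, 16 in males, 21 for the slope difference between the sexes, 69 for week 1, 71 for week 13 and 90 for intake, against 15, 0, 0, 0, 0, 5, 0 and 8 with it; this setting tests more genes of very low count. DESeq2 called 2 genes for preference in males and 1 for the slope difference, and the run covariate 1 for the slope difference. For week 1, limma-voom called 0 genes, ranks of the measure 2 and the cilium covariate 3. For intake, 1 gene was called by limma-voom and 1 without the 5 libraries with the highest choroid score, and 0 with the run covariate, the choroid covariate, the cilium covariate, ranks of intake, or without the library with the highest Hdc. The cause of these changes was not tested.

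The sex difference of Hdc, 0.03, changed sign with limma-voom (-0.13), without the 5 choroid libraries (-0.13), without the library with the highest Hdc (-0.25) and with the cilium covariate (-0.023). Its slope difference between the sexes, -1.07, turned to 0.23 without the 5 choroid libraries and to 0.093 with the cilium covariate. For mean preference, Hrh1 turned to -0.0078 with the run covariate, and Hrh2 to 0.0029 with the choroid and 0.030 with the cilium covariate. For intake, Hrh2 turned to 0.048 and 0.070 with these covariates and Hrh3 to 0.10 and 0.089; without the 5 choroid libraries Hrh1 turned to 0.012 and Hrh3 to 0.024, and Hrh3 turned to 0.0011 without the library with the highest Hdc and to 0.0090 with ranks. Over 10 alternatives each, the Hdc slope lay between 0.53 and 1.26 for preference in all animals, 0.40 and 1.68 in females, 0.24 and 0.88 in males and 0.56 and 1.40 for intake. These alternatives include ranks of the measure, whose slope is per 0.5 of the range of ranks, so the ranges mix 2 units. Without the library with the highest Hdc its relation with the handling score (r = 0.216) no longer passed; 22 of 70 list relations and 5 of 10 pairs passed then, as before. Hdc and Hrh2 rest on few reads, with as few as 21 for Hdc, so their lowest values carry the largest counting error.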

Other observations

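Several hypothalamic peptide genes reached high levels in single libraries of this dissection while Hdc did not follow them. Pmch, the gene of melanin-concentrating hormone, ranged from 5 to 28585 counts with a median of 33, and had a rho of 0.0671 with Hdc. Avp, the vasopressin gene, ranged from 5 to 51947 counts with a median of 115.5, and had a rho of -0.183 with Hdc and 0.370 with Hrh1. Slc18a2, the vesicular monoamine transporter, ranged from 3 to 3128 counts with a median of 35.5, was highest in female replicate 15, and had a rho of 0.102 with Hdc.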
